A study of Mus musculus with 8 samples.

Results

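The Ifitm genes encode interferon-induced transmembrane proteins. The 5 members described here, Ifitm1, Ifitm2, Ifitm3, Ifitm6 and Ifitm10, were found by their GENCODE symbols among the 55385 genes of the deposited count table, and all 5 passed the filter on low counts, as did 17537 genes in all. RNA was sequenced from primary mouse microglia in 8 libraries, 4 control and 4 treated with immunoglobulin G (IgG). All cells were wild-type and came from the neocortex and hippocampus of newborn mice, with several brains pooled in each culture. They grew for 12 days with other brain cells in serum-containing medium, were shaken off and kept for 3 days in plates, and IgG was given at 10 µg/ml from day 15 in vitro for 24 h. The control cells are called untreated in the labels and PBS-treated in the study's methods. Libraries numbered alike in both groups carry 1 date in their labels, which gives 4 pairs. A p-value here measures the spread between these samples, which the labels do not tie to separate animals. The comparison asks whether IgG alone changes the transcriptome of microglia.

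Ifitm proteins are small membrane proteins that hinder the fusion of enveloped viruses with host membranes. Ifitm3 and Ifitm2 act mostly in endosomes and lysosomes, and Ifitm1 mostly at the cell surface. Type I interferon raises several of these genes through a transcription factor complex that holds Stat2 and Irf9 and binds a repeat of GAAA in their promoters, and Irf7 amplifies the same response. Ifitm3 also binds γ-secretase, the protease that releases amyloid β, and has been followed in microglia and astrocytes for that reason.

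The libraries held 21287816 to 23703216 counts, and levels are given in CPM, a unit that divides each count by the TMM-scaled total of its library. The limit that a count of 0 allows, 3 counts, came to 0.127 to 0.141 CPM and covers counting error only. Mitochondrial genes took 4.85% of the counts in IgG replicate 1 and 5.59% in IgG replicate 3, against 1.97% to 2.41% in the other 6 libraries. Of the 12 microglial markers listed, 11 were tested, and their summed level was 5523 to 5887 CPM in the control libraries and 5828 to 6993 CPM in the IgG libraries. Because the RNA came from whole wells, fewer cells of a type and less RNA per cell cannot be told apart.

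Ifitm3 was the member with the most RNA and the only member past the criterion in any fit that kept all 8 libraries. Its estimated log2 change with IgG was 0.60 in the fit with the replicate block, which passed the criterion, and 0.56 in the fit without it, which did not. The criterion was an unadjusted p under 0.01 with a log2 fold change beyond 0.5. Without the block 0 of the 5 members met it, beside 0.844% of all tested genes, and with the block 1 of 5 met it, beside 1.82%. By the Benjamini-Hochberg adjusted p under 0.05, 0 of 5 members passed in either of these edgeR fits, beside 0% of tested genes without the block and 0.393% of genes, all higher, with it. At an unadjusted p under 0.05 the member counts were 0 without the block and 1, higher, with it, beside 7.01% and 10.2% of tested genes (6.35% higher). DESeq2 and limma-voom without the block also called 0 members by the criterion or the adjusted p, while of the 17537 genes DESeq2 called 217 by the criterion and 53 by the adjusted p and limma-voom 140 and 0. In 0 of the 5 members did every IgG library lie above every control library or every one below, which 2.6% and 1.57% of tested genes did.

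Ifitm3 (ENSMUSG00000025492) lies on the minus strand of chromosome 7 at chr7:141009586-141010770 of mm10. In the control libraries it stood at 230, 145, 197 and 95.6 CPM in replicates 1 to 4, and in the IgG libraries at 320, 206, 264 and 194 CPM. The groups overlapped, since IgG replicate 4 lay below control replicates 1 and 3, while every IgG library lay above its own paired control. The mean was 167 ± 59.3 CPM in control and 246 ± 58.0 CPM in IgG (SD, n = 4 each). The change within pairs 1 to 4 was 0.47, 0.51, 0.42 and 1.02 on the log2 scale. Being higher in all 4 pairs was shared by 10.4% of tested genes. With edgeR's quasi-likelihood test the log2 fold change was 0.56 ± 0.26 (SE) without the block, with an unadjusted p of 0.0555 and an adjusted p of 0.692. With the block it was 0.60 ± 0.12, with a 95% interval of 0.33 to 0.87, an unadjusted p of 0.000859 and an adjusted p of 0.104. Without the pair numbered 4 the blocked estimate was 0.45, under the fold limit, with an adjusted p under 0.05.

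**Figure D1:**
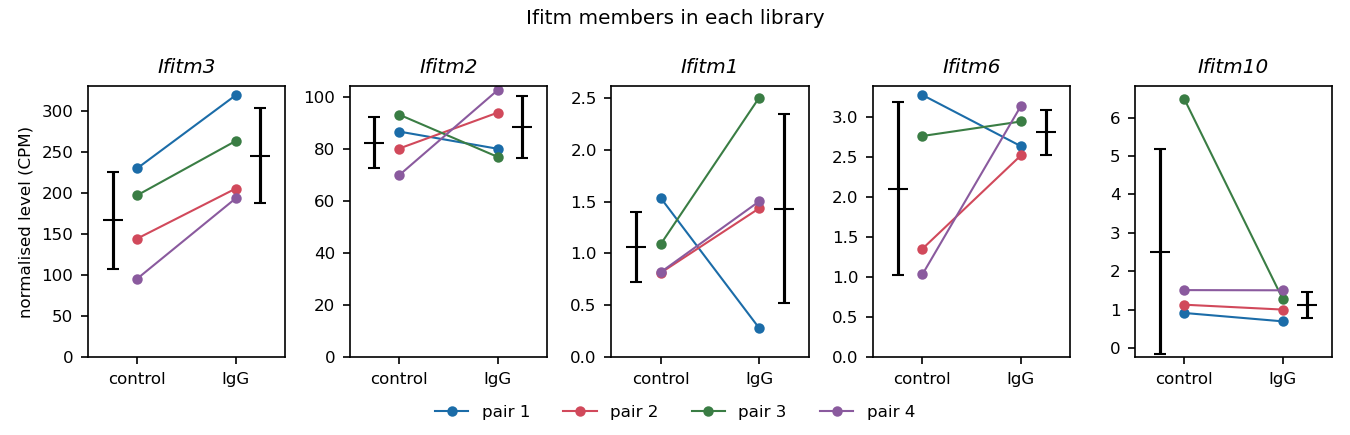
Normalised level of each Ifitm member in CPM, on a linear axis, in the 4 control and 4 IgG libraries, with each culture pair joined by a line and the mean ± SD of each group in black at the side. Ifitm3 was higher with IgG in all 4 pairs, Ifitm2 in pairs 2 and 4 only, and control replicate 3 stood at 6.49 CPM for Ifitm10.

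Ifitm2 (ENSMUSG00000060591), the member most like Ifitm3 in cellular location, lies at chr7:140954837-140955987 on the minus strand. It stood at 86.8, 80.2, 93.3 and 69.9 CPM in control replicates 1 to 4. In IgG replicates 1 to 4 it stood at 80.1, 94.0, 77.0 and 103 CPM. The groups overlapped, and Ifitm2 was higher with IgG in pairs 2 and 4 and lower in pairs 1 and 3, the pairs whose IgG libraries held the larger mitochondrial share. Its mean was 82.5 ± 9.98 CPM in control and 88.4 ± 12.0 CPM in IgG (SD, n = 4 each). The log2 fold change was 0.10 ± 0.12 (SE) without the block, with a 95% interval of -0.17 to 0.37. With the block it was 0.10 ± 0.14, with an interval of -0.22 to 0.42 and an adjusted p from edgeR of 0.811. The blocked interval for Ifitm2 thus reached 0.42, inside the interval for Ifitm3, and the difference between them was therefore taken within pairs.

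The Ifitm3 change exceeded the Ifitm2 change in every pair, by 0.59, 0.28, 0.69 and 0.46 on the log2 scale in pairs 1 to 4. The mean excess was 0.51 ± 0.18 (SD, n = 4 pairs). The exact two-sided sign-flip permutation test gave p = 0.125, the smallest that 4 pairs allow, so it could not decide whether the changes differed. On the scale of CPM per kilobase of exon, the ratio of the Ifitm3 to the Ifitm2 level was 2.56, 1.74, 2.04 and 1.32 in control replicates 1 to 4. In IgG replicates 1 to 4 it was 3.85, 2.11, 3.31 and 1.82. Ifitm3 thereby made up 56.4% to 71.2% of the summed per-kilobase level of the 5 members in control and 63.8% to 79.0% in IgG.

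Reads of Ifitm2 are less certain than those of Ifitm3. Gm45717, a read-through gene that joins the exons of Ifitm5 and Ifitm2, shares 268 of the 655 exon bases of Ifitm2. It held 1216 to 1764 counts, equal to 77.4% to 83.5% of the Ifitm2 counts in each library, whereas Ifitm5 held 2 to 9 counts. How the counting treated reads in that overlap is not given in the sources used here. Of all 50-base stretches in the exons of Ifitm2, 48.5% also occur in another gene, and 22.8% do when Gm45717 is set aside. At 100 bases the Ifitm2 shares were 34.9% and 4.68%. For Ifitm3 the share was 10.0% at 50 bases and 0% at 100 bases.

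The start regions of both genes are printed because the GAAA repeat is the sequence through which interferon is known to reach this family. The windows are those of RefSeq on GRCm38.p6, with 250 bases before and 50 bases after each start, and all 5 members had one. The motifs searched on both strands were a GAAA repeat (GAAA, any 2 bases, GAAA), the interferon-stimulated response element (ISRE), which is that repeat followed by CT, and TTCNNNGAA, the core of a Stat site. Capitals mark the matches in the lines that follow, which are 30-base stretches read 5′ to 3′ on the minus strand, at chr7:141010714-141010743 for Ifitm3, chr7:140955979-140956008 for Ifitm2 and chr7:141016894-141016923 for Ifitm6.
Ifitm3: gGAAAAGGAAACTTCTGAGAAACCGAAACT
Ifitm2: gGAAAAGGAAAttgctagagaaagggcggg
Ifitm6: gactccaccacccatatgaacTTCCTTGAA

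Ifitm3 held the ISRE at 2 places, bases 3 to 14 and 20 to 31 counted from 1 at its RefSeq start, with TTCNNNGAA at bases 14 to 22, overlapping both. Ifitm2 held the GAAA repeat at 1 place, 46 to 37 bases before its start, without the CT that follows in the ISRE. Ifitm6 held TTCNNNGAA from 10 to 2 bases before its start. Ifitm1 and Ifitm10 held none of the 3 motifs in these windows. Among all 32851 promoter windows, 3.44% held the GAAA repeat, 0.271% held the ISRE and 8.3% held TTCNNNGAA. The stretches before the start of the members with the most RNA are shown next, Ifitm3 at chr7:141010745-141010994 and Ifitm2 at chr7:140955962-140956211, both on the minus strand.
Ifitm3: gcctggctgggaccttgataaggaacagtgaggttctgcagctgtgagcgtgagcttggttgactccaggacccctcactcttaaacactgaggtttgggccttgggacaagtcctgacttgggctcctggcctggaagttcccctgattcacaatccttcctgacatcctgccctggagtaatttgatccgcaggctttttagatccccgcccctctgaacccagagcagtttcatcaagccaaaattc
Ifitm2: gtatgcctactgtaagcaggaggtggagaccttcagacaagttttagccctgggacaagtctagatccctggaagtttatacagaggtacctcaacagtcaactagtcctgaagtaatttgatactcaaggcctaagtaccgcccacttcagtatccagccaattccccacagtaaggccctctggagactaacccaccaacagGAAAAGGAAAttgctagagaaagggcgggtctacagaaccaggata

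Ifitm1 (ENSMUSG00000025491), the member that acts at the cell surface, lies on the plus strand at chr7:140967221-140969825 and was near the limit of detection. It held 37, 18, 26 and 19 counts in control replicates 1 to 4, which is 1.53, 0.812, 1.09 and 0.818 CPM. In IgG replicates 1 to 4 it held 6, 33, 51 and 33 counts, which is 0.277, 1.43, 2.50 and 1.502 CPM. IgG replicate 1 was the lowest of the 8 libraries and IgG replicate 3 the highest, so that the IgG group spanned the whole control range. The log2 fold change was 0.42 ± 0.50 (SE) without the block and 0.31 ± 0.53 with it, with a blocked 95% interval of -0.90 to 1.52 and an adjusted p from edgeR of 0.847. Without the pair numbered 3 the blocked value was -0.06, and without the pair numbered 1 it was 0.98.

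Ifitm6 (ENSMUSG00000059108), the neighbour of Ifitm3 at chr7:141015699-141017924 on the minus strand, was also rare. Its level was 3.28, 1.35, 2.76 and 1.03 CPM in control replicates 1 to 4 and 2.64, 2.52, 2.945 and 3.14 CPM in IgG replicates 1 to 4. The control libraries fell into a higher and a lower pair of values, and the IgG libraries lay close together between the control extremes. The mean was 2.11 ± 1.08 CPM in control and 2.81 ± 0.284 CPM in IgG (SD, n = 4 each). The change within pairs 1 to 4 was -0.30, 0.86, 0.09 and 1.52 on the log2 scale. With the block the log2 fold change was 0.51 ± 0.31 (SE), with a 95% interval of -0.21 to 1.23 and an adjusted p from edgeR of 0.589. With pairs 1 and 3 left out, the pairs whose IgG libraries had the larger mitochondrial share, it was 1.24 with an adjusted p of 0.0235, from 2 pairs. In the same fit Ifitm3 stood at 0.76 with an adjusted p of 4.39e-05 and Ifitm2 at 0.39 with an adjusted p of 0.245. The 2 pairs kept were those with the largest changes of Ifitm6, Ifitm3 and Ifitm2, so these values are no independent support for a rise. Ifitm6 rested on pair 4 as well, since without replicate 4 it stood at 0.17 with the block and 0.11 without it, against 0.41 in all libraries without the block.

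Ifitm10 (ENSMUSG00000045777) is a distant member that lies apart from the cluster, at chr7:142325837-142373753 on the minus strand. It stood at 0.912, 1.13, 6.49 and 1.51 CPM in control replicates 1 to 4, and at 0.694, 1.00, 1.28 and 1.502 CPM in IgG replicates 1 to 4. Gm49369 shares 215 of its 4789 exon bases on the same strand and held 245014 to 315806 counts. Reads of Ifitm10 in those bases may belong to that gene. Gm49369 also overlaps the span of Ctsd, which averaged 18900 CPM in control, and the origin of the Gm49369 counts was not tested. For Ifitm10, control replicate 3 stood apart with 155 counts, and the other 7 libraries held 15 to 35. Ifitm10 was lower with IgG in all 4 pairs, the last by under 0.01, as were 8.47% of tested genes, with changes of -0.36, -0.16, -2.27 and -0.0047 on the log2 scale in pairs 1 to 4. Its log2 fold change was -1.17 ± 0.61 (SE) without the block and -0.82 ± 0.41 with it, with an adjusted p from edgeR of 0.539. Without control replicate 3 the unblocked value was -0.08.

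**Figure D2:**
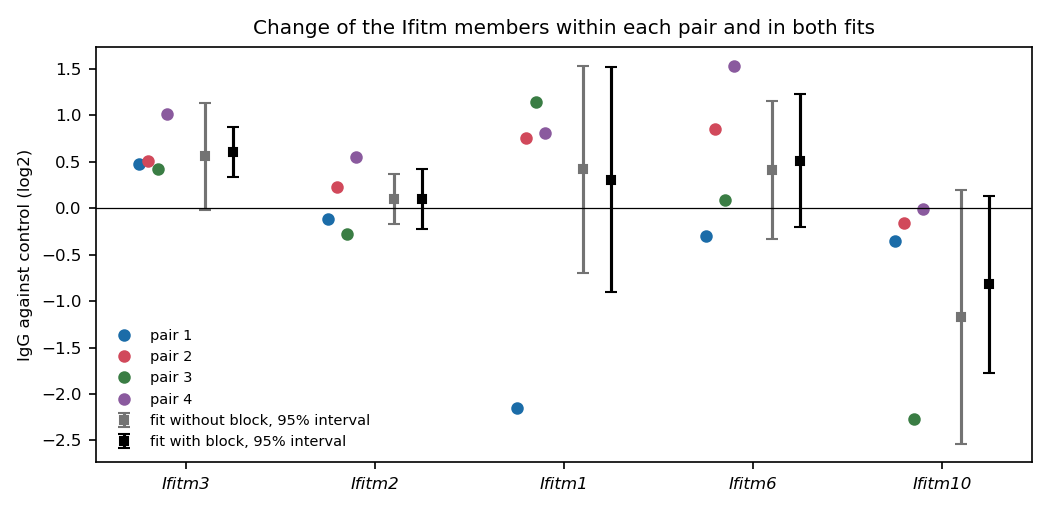
Log2 change of each Ifitm member with IgG in each of the 4 pairs (coloured points) beside the estimates of the edgeR fits without (grey) and with (black) the replicate block, with 95% intervals. Only the blocked interval for Ifitm3, 0.33 to 0.87, stays clear of 0.

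Compared per kilobase of exon in control cells, the members fell in the order Ifitm3, Ifitm2, Ifitm6, Ifitm1 and Ifitm10, with mean levels of 246, 126, 2.33, 0.972 and 0.524 CPM per kilobase. Ifitm3 exceeded Ifitm2 in every control library, with the lowest ratio 1.32 in replicate 4. Ifitm6 exceeded Ifitm1 in every control library. The lower end of the order was less firm, because in control replicate 3 Ifitm10 stood at 1.36 CPM per kilobase and Ifitm1 at 0.995.

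The level of Ifitm3 followed that of Irf7, the interferon-induced transcription factor, across the 8 libraries. Irf7 stood at 179, 103, 153 and 55.5 CPM in control replicates 1 to 4 and at 372, 213, 332 and 137 CPM in IgG replicates 1 to 4. In both groups the libraries ranked 1, 3, 2 and 4 from high to low for Irf7 and for Ifitm3. Pearson's r of log2 CPM over the 8 libraries was 0.97 between Ifitm3 and Irf7 and 0.95 between Ifitm3 and Isg15, an interferon-induced ubiquitin-like protein. For Ifitm2 the r was 0.20 with Irf7 and 0.50 with Isg15, and for Ifitm6 it was 0.75 and 0.89. These are descriptions over libraries that share culture dates and the IgG contrast. Between members r was 0.85 for Ifitm3 with Ifitm6, 0.66 for Ifitm2 with Ifitm6 and 0.33 for Ifitm3 with Ifitm2.

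**Figure D3:**
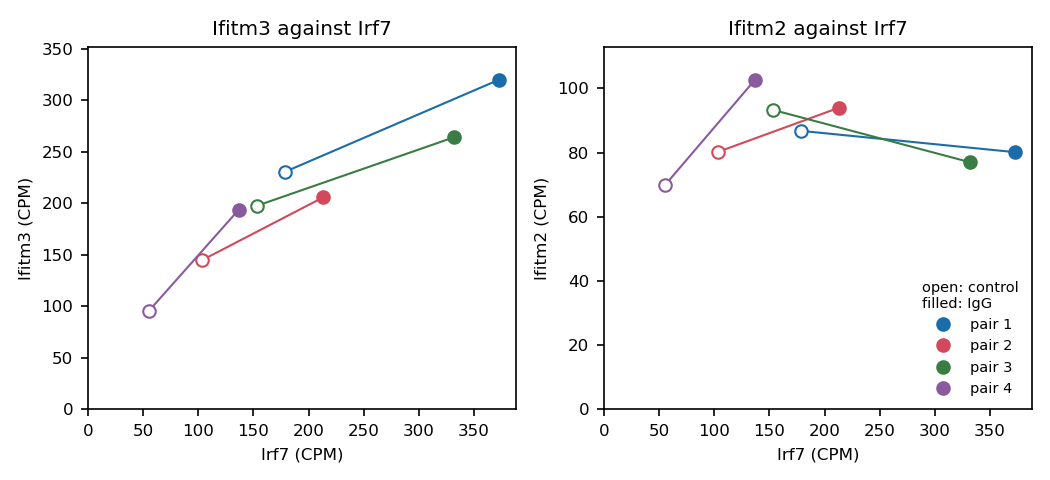
Level of Ifitm3 (left) and Ifitm2 (right) against the level of Irf7 in CPM, on linear axes from 0, with open circles for control, filled circles for IgG and a line joining each pair. Ifitm3 and Irf7 were both higher with IgG in every pair, whereas Ifitm2 was lower in pairs 1 and 3 and higher in pairs 2 and 4.

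Of all tested genes outside the family, those whose log2 CPM was most like Ifitm3 were Atrip (r = 0.993), Trex1 (r = 0.992) and Slfn2 (r = 0.989). Trex1 is a DNA exonuclease that degrades cytosolic DNA, and Atrip lies beside it in the genome, so that reads of this pair may be shared. For Ifitm2 the closest were Gm45717 (r = 0.982), the read-through gene above, Snora5c (r = 0.979) and Spi1 (r = 0.960), which encodes PU.1, a transcription factor of myeloid cells. For Ifitm6 they were Gm17748 (r = 0.979), Tap2 (r = 0.976), a peptide transporter of antigen presentation, and Gm13577 (r = 0.951). For Ifitm1 the highest r was 0.962 with Gm9385, at low counts of the member.

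Signalling genes of the interferon pathway moved unevenly. In edgeR, of 18 tested, 0 were higher and 1 was lower past the criterion without the block, and 3 were higher and 0 lower with it, beside 1.48% and 0.342% of tested genes in those directions and, without the block, 102 higher and 46 lower of the 17537. Across fits that left out single libraries or pairs, the count ran from 0 to 4 without the block, beside 56 to 610 tested genes. Across those that left out pairs, it ran from 3 to 4 with the block, beside 215 to 762. DESeq2 without the block called 2 of the 18, beside 217 of the 17537, with Irf7 among them at 1.096. The gene that fell without the block was Socs1, an inhibitor of cytokine signalling, at -0.76 ± 0.24 (SE). Those that rose with the block included Irf7 at 1.13 ± 0.09 and Usp18, which restrains the interferon receptor, at 0.68 ± 0.10. Stat2 at 0.45 ± 0.09 and Irf9 at 0.25 ± 0.09 did not pass, nor did the receptor chains Ifnar1 at 0.08 ± 0.10 and Ifnar2 at 0.16 ± 0.09. The median log2 fold change of the 18 genes without the block was 0.13, against 0.0036 over all tested genes. Of 12 interferon genes listed, 11 had 0 counts in every library, and Ifnb1 held at most 3 counts.

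Other interferon-induced genes, a list chosen with its behaviour in these libraries known, gave 0 of 16 past the criterion without the block, beside 0.582% of tested genes higher, and 14 of 16 higher with it, beside 1.48%. Across fits that left out single libraries or pairs, 0 to 8 passed without the block, beside 56 to 610 tested genes. Across those that left out pairs, 12 to 16 passed with the block, beside 215 to 762. Neither block nor filter on low counts gave 5, beside 284. At an unadjusted p under 0.05 in edgeR 6 of 16 were called without the block, beside 7.01% of tested genes, and 16 of 16 with it, beside 10.2%. The median log2 fold change was 0.72 without the block, and all 16 were higher in all 4 pairs. Their blocked log2 fold changes ran from 0.42 for Mx2 to 1.22 for Ifi44, and Ifitm3 at 0.60 lay within that range. Of the 13 list genes with a promoter window, 5 held the ISRE, which Ifitm3 also held, beside 0.436% of tested genes with a window. Among 16 of the signalling genes above with a window, 0 held it.

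Other proteins that restrict virus entry were represented by 6 tested genes. Ly6e, a lipid-anchored surface protein that blocks coronavirus entry, rose from 269 to 524 CPM on average, with a blocked log2 fold change of 0.96 ± 0.09 (SE) and an adjusted p from edgeR of 0.00912. It was the 1 gene of the 6 past the criterion with the block in edgeR, beside 1.82% of tested genes. Without the block 0 passed in edgeR, beside 0.844% of tested genes, and 1 in DESeq2, beside 217 of the 17537 genes. In edgeR 3 were at an unadjusted p under 0.05 in each fit, beside 7.01% without and 10.2% with the block. Ch25h, which makes 25-hydroxycholesterol, stood at 0.40 ± 0.10 and Cd74, the invariant chain, at 0.33 ± 0.11 in the blocked fit, both below the fold limit and higher in all 4 pairs. Ncoa7 stood at 0.20 ± 0.16.

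Genes whose products modify or move Ifitm proteins showed 0 of 10 past the criterion in either edgeR fit and 1 in each at an unadjusted p under 0.05, with a median log2 fold change of 0.04 without the block. The largest values without the block were 0.38 ± 0.13 (SE) for Vcp, an ATPase that extracts ubiquitinated proteins, and 0.25 ± 0.17 for Zmpste24, a membrane protease that cooperates with Ifitm proteins. Nedd4, the ligase that marks Ifitm3 for degradation, stood at -0.17 ± 0.13, and Setd7, which methylates it, at -0.16 ± 0.10. Zdhhc20, a palmitoyltransferase for Ifitm3, stood at 0.07 ± 0.15.

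The γ-secretase genes and its substrate App gave 0 of 8 past the criterion in either edgeR fit and, at an unadjusted p under 0.05, 0 without and 1 with the block, with a median log2 fold change of 0.11 without the block. Ncstn, the substrate-binding subunit, stood at 0.23 ± 0.11 (SE) and was higher in all 4 pairs. Aph1b stood at 0.20 ± 0.16 and Psen2 at 0.12 ± 0.09. Tetraspanins and their partners, among which Ifitm1 is found at the cell surface, also gave 0 of 10 in either fit and, at an unadjusted p under 0.05, 1 without and 2 with the block, with a median of -0.02. For these 3 lists the background is the share of all tested genes. By the criterion that share was 0.844% without and 1.82% with the block. At an unadjusted p under 0.05 it was 7.01% without and 10.2% with the block. Cd53 stood at 0.35 ± 0.12 and Cd9 at -0.32 ± 0.18, Ptgfrn at -0.18 ± 0.10 and Tspan4 at 0.14 ± 0.09, and each kept its direction in all 4 pairs.

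Along chromosome 7, 17 tested genes lay within 250 kb of the cluster that holds Ifitm2, Ifitm1, Ifitm3 and Ifitm6. Of these, 0 passed the criterion without the block in edgeR, with 1 at an unadjusted p under 0.05 beside 7.01% of tested genes, and 1 of 17, Irf7, rose with it, beside 1.48%. Psmd13, a subunit of the proteasome, stood at 0.21 ± 0.09 (SE) with the block, and B4galnt4, a glycosyltransferase and the nearest tested gene on the Irf7 side, at -0.07 ± 0.30. The median blocked log2 fold change of the 17 was -0.03. Around Ifitm10, 7 genes were tested, with 0 past the criterion and 0 at an unadjusted p under 0.05 in either fit. Of all tested genes the criterion called 0.844% without and 1.82% with the block, and the unadjusted p 7.01% and 10.2%.

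**Figure D4:**
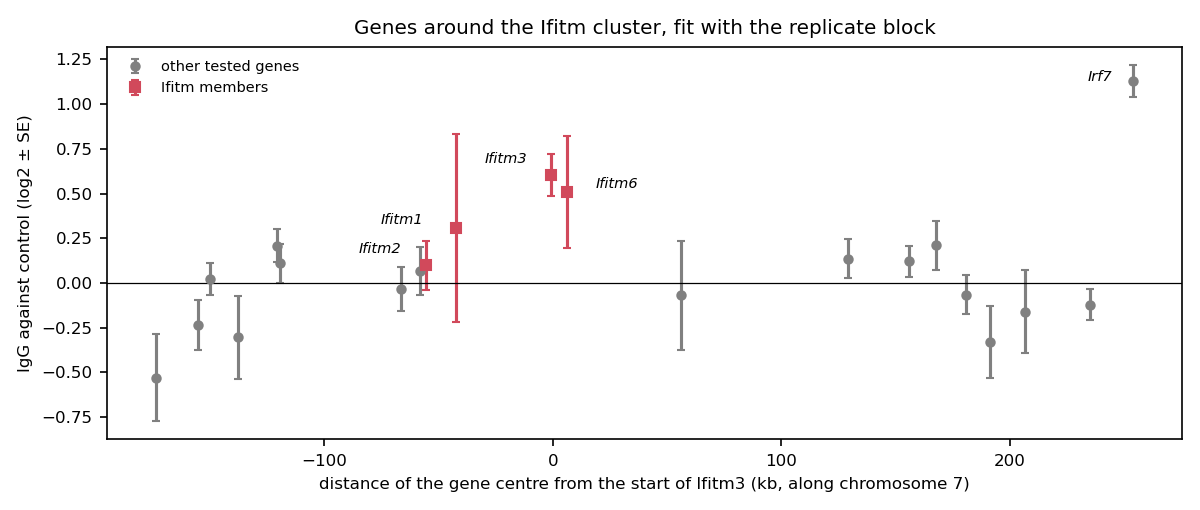
Blocked log2 fold change ± SE of the tested genes around the Ifitm cluster (grey) and of its 4 members (red) against the distance of each gene's centre from the start of Ifitm3 in kb. Irf7 at 1.13 and Ifitm3 at 0.60 stand above the other grey genes between them, while Ifitm6, also between them, stands at 0.51 ± 0.31, near Ifitm3.

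Cells other than microglia also express Ifitm genes, and their markers were read in the same libraries. Of 12 monocyte and neutrophil markers, 6 (S100a9, Mpo, Chil3, Plac8, Ly6g and Retnlg) had 0 counts in every library, and the summed level was 1.87 to 3.56 CPM in control and 1.74 to 3.05 CPM in IgG. The 8 fibroblast markers summed to 75.0 to 109 CPM in control and 74.0 to 117 CPM in IgG, and the 8 endothelial and mural markers to 130 to 171 and 125 to 140 CPM, with Cldn5 at 0 in every library. Astrocyte markers summed to 131 to 145 CPM in control and 119 to 139 CPM in IgG, neuronal markers to 42.8 to 69.5 and 36.9 to 56.3 CPM, and oligodendrocyte markers to 1198 to 1826 and 1027 to 1716 CPM. Markers of border macrophages summed to 57.4 to 82.5 CPM in control and 52.3 to 108 CPM in IgG, and the groups overlapped in the sums of each of these lists. Single markers moved within them. Cbr2, a border macrophage marker, at 1.23, and Cdh5, an endothelial marker, at 0.98 on the log2 scale passed the criterion with the block, at mean levels under 2 CPM. All 9 oligodendrocyte markers had values below 0, with the lowest blocked value -0.50 for Olig2. Of them 0 passed the criterion, beside 0.844% of tested genes without and 1.82% with the block. Of the astrocyte and neuronal markers tested, 7 of 8 and 6 of 7 were also below 0. Of 11 microglial markers, 3 were higher past the criterion without the block, Tmem119 at 0.54, Aif1 at 0.67 and Fcrls at 0.83, beside 0.582% of tested genes. With the block 2 of 11 passed, Fcrls at 0.83 and Aif1 at 0.69, beside 1.48%. The part of these cells in the Ifitm values was not tested.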

How the data were processed

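Per the labels and the study's methods, RNA of primary mouse microglia was sequenced, aligned to GRCm38 with HISAT2 2.2.1 and counted per gene, and featureCounts is named in the submitters' processing notes. The annotation, strand setting and treatment of shared reads are not given in the sources used here. The deposited values are the authors' raw read counts per gene, whole numbers without normalisation, and no other columns were present. Libraries held 21287816 to 23703216 counts.

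Counts were scaled by TMM and filtered by filterByExpr, which left 17537 genes, and tested with edgeR 4.0.16 in R 4.3.3 (quasi-likelihood, group only, all 8 libraries, Benjamini-Hochberg adjustment). Log2 CPM used a prior count of 2, and means ± SD are of CPM. The replicate block was the alternative. Same-numbered libraries share a date in the labels, and their deviations from the group means correlated at 0.41, 0.33, 0.26 and 0.32, against -0.34 to 0.20 for other numbers over 15669 genes. Symbols, positions and exon lengths came from GENCODE M21 and promoter windows from RefSeq. The fit was tested on simulated data, where the criterion with the block recovered more of the changes put in than without it, and also made more false calls. DESeq2 1.42.0 and limma 3.58.1 served as further alternatives, along with other scalings, filters and left-out libraries. A planned comparison of the protein sequences was not analysed here.

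The members and lists were chosen with earlier results of these data known. Named genes were the members, other Ifitm genes with counts, list genes past the criterion with or without the block and up to 4 others by size of change, tested genes within 250 kb, and the 3 genes most like each member. A few further genes were named for their role, after their values were seen. Some genes that this rule names are not reported here.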

Additional observations from a re-analysis of the deposited data

Results flagged for a closer look

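Ifitm10 in control replicate 3 stood at 6.49 CPM, far from the other 3 control libraries, of which the highest was 1.51 CPM. The gap to the nearest library was 0.893 of the range of the group, above the critical value of 0.829 for 4 samples, a limit that chance passes in about 1 in 20 groups. The ratio was taken at both ends of both groups for all 5 members, so 1 flag somewhere is likelier than that. Only this value was flagged. The excess of Ifitm10 in control replicate 3 over the highest other library, 2.04 on the log2 scale, was the largest of the 17537 tested genes for that library. The next was Treml1 at 0.92. Without control replicate 3 the log2 fold change of Ifitm10 was -0.08 in place of -1.17.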

How the results depend on the processing

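With the replicate block, which follows the dates in the labels, Ifitm3 passed the criterion at a log2 fold change of 0.60, so that 1 member passed and 320 tested genes did, against 0 and 148 without it. Adding a correction for length and GC content gave 0.63, 1 member and 335 genes, DESeq2 with the block gave 0.60, 1 and 350, and edgeR's likelihood ratio test with the block gave 0.60, 1 and 528. In these last 3 fits 1 member also passed the adjustment, beside 210, 231 and 327 genes, with an adjusted p for Ifitm3 of 0.00596, 0.00178 and 0.0013. With pairs 1 and 3 left out and the block kept, Ifitm3 was 0.76 and Ifitm6 was 1.24, and 2 members passed both rules, beside 327 genes past the criterion and 190 past the adjustment. The pairs kept there were those in which Ifitm3 and Ifitm6 had changed most. Leaving out pairs 1 to 4 in turn with the block, Ifitm3 was 0.65, 0.63, 0.67 and 0.45, the members past the criterion from 0 (without replicate 4) to 1, those past adjustment from 0 to 1 (without replicate 4), and the genes from 215 to 762 (326 without replicate 2). Leaving out single libraries or pairs without the block, Ifitm3 ranged from 0.35 to 0.75 and was never past the criterion, and the genes ranged from 56 to 610.

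Ifitm2 changed sign without replicate 4, at -0.067 without the block and -0.070 with it, and with 1 pair or library left out reached 0.23 without and 0.22 with it. With pairs 1 and 3, in which it was lower with IgG, left out together it was 0.39 with the block. Ifitm1 changed sign without replicate 3 with the block, at -0.056, and reached 0.98. Ifitm6 ranged from 0.11 to 0.74 without the block and from 0.17 to 0.82 with it, lowest without replicate 4. Ifitm10 kept its direction in every fit run. The causes of these changes were not tested. With no filter on low counts 284 genes passed the criterion. Scaling by total counts alone moved the split of calls from 102 higher and 46 lower to 60 and 82, and the median of all genes to -0.09. Ifitm1 has no value at a minimum of 10 counts in every library, since IgG replicate 1 held 6. The low counts of Ifitm1, Ifitm6 and Ifitm10 limit what these libraries can show of them.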

Other observations

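Other genes of the same domain family were rare in these microglia. Ifitm5, the osteoblast member of the chromosome 7 cluster, held 2 to 9 counts and was not tested. Ifitm7, on chromosome 16, averaged 1.075 CPM in the control and 0.955 CPM in the IgG libraries, with a log2 fold change of -0.16 ± 0.31 (SE, edgeR without the block). Among relatives that share the CD225 domain, 5 of 9 were tested, all at mean control levels of 0.613 to 1.82 CPM. In edgeR 0 of 5 passed the criterion, beside 0.844% of tested genes without and 1.82% with the block. At an unadjusted p under 0.05 it was also 0 of 5, beside 7.01% and 10.2%. Prrt2, a presynaptic protein, stood at -0.43 ± 0.49, Tmem91 at -0.48 ± 0.38, Prrt1 at -0.25 ± 0.38 and Syndig1 at -0.15 ± 0.25.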
